A study of Cannabis sativa with 10 samples.

Results

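Male flowering shoot apices of Cannabis sativa at week 3 were compared with female flowering shoot apices at week 3, across all genes. The comparison used 4 of the 10 libraries of the study: 2 from male apices, labelled male flower induction (STS), and 2 from female apices, labelled female flower induction. The other libraries came from male week 1, female week 1 and vegetative apices, 2 in each group. All 10 libraries came from the tips of shoots of genotype A3, and the labels give no other genotype, so the male flowers were induced on the genotype that also gave the female flowers. STS is not spelled out in the labels. In work on this plant it usually stands for silver thiosulfate, a blocker of ethylene perception that makes female plants bear male flowers. Every male library carries this treatment and no female or vegetative library does, so sex of the flower and treatment cannot be told apart. The labels do not say whether the 2 libraries of a group came from separate plants, so the p-values below reflect how far the libraries of a group lie apart, and that spread may be technical only.

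In flowering plants, floral organ identity is set by MADS-box transcription factors. Class B genes act in petals and stamens, class C genes in stamens and carpels, class D genes in ovules, and SEPALLATA genes act together with all of them. Inside the anther, the tapetum feeds the developing pollen and makes the building blocks of sporopollenin, the polymer of the pollen wall, while the meiocytes pass through meiosis. Female cannabis flowers consist largely of a carpel with its ovule and surrounding bracts, which bear glandular trichomes that make cannabinoids and terpenes.

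The levels were FPKM, that is, fragments scaled by gene length and by the number of mapped fragments, so they are per length and can be set side by side between genes. They were tested as log2(FPKM + 1) with limma over 17999 of the 35192 genes, those whose mean reached 1 FPKM in male or female week 3 apices. A gene is called changed where the Benjamini-Hochberg adjusted p was below 0.05. Each difference below is male minus female on the log2(FPKM + 1) scale, with its standard error. On this scale the change of a low gene comes out smaller than it is. The sum of all FPKM was 736053 and 764672 in the male libraries and 630805 and 603616 in the female libraries. Levels above 0 were listed for 22199 and 22228 genes in male and for 20646 and 20620 genes in female libraries. The depth in reads is unknown, but the spacing of the lowest values put the male libraries at 74.0% and 73.6% of the depth of female replicate 1, and female replicate 2 at 100.6%. More genes were listed above 0 in the male libraries, although this estimate placed them at a lower depth. Of 8 shoot meristem markers 1 was at 0 in both female libraries, and their summed level was 29.6 and 31.9 FPKM in male and 44.2 and 51.5 FPKM in female libraries.

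Male and female apices differed at most genes measured. Of the 17999 genes tested, 11072 were called, a share of 61.5%. Of these, 5810 rose in male apices (32.3% of the genes tested) and 5262 fell (29.2%). The large changes were mostly rises: 3526 genes (19.6%) rose and 1854 (10.3%) fell by at least 1 log2 unit, 851 rose and 85 fell by at least 3, and 47 rose and 2 fell by at least 8. The 5380 changes of at least 1 log2 unit were 3445 with a pseudocount of 5. Genes that rose by at least 3 log2 units held 15.8% and 17.2% of the summed FPKM in the male libraries and 0.667% and 0.647% in the female libraries. Those that fell by at least 3 held 0.101% and 0.108% in male and 3.25% and 2.92% in female libraries. The split of the small changes depended on the scaling. After quantile normalisation 4666 genes rose and 7698 fell, so that 37.7% of the called genes were higher in male against 52.5% without it, and the median difference of all genes moved to -0.26 from -0.02. Of the genes called without it, 9926 were also called with it, and 0 of them changed sign.

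**Figure D1:**
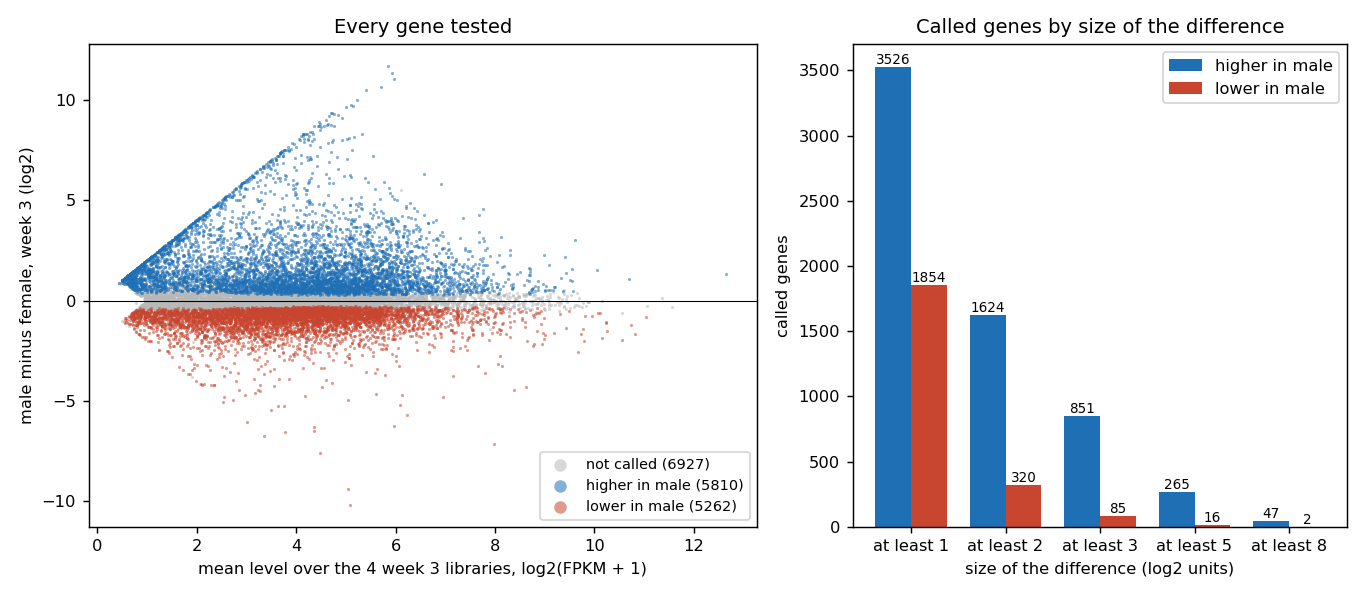
Left, difference between male and female week 3 apices (y axis, log2(FPKM + 1), male minus female) against the mean level over the 4 week 3 libraries (x axis, log2(FPKM + 1)), with 1 point per gene tested, blue for the 5810 called rises, red for the 5262 called falls and grey for the rest. Right, number of called genes (y axis) by least size of the difference in log2 units (x axis), where rises outnumber falls by 3526 to 1854 at 1 unit and by 851 to 85 at 3 units.

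Many of the rises were of genes that female apices hardly showed. In 277 genes both male libraries reached 10 FPKM while both female libraries stayed under 0.5 FPKM, and 233 of these genes were also under 0.5 FPKM in all 6 vegetative and week 1 libraries. Together the 277 genes held 5.30% and 6.10% of the summed FPKM of the male libraries. The reverse pattern was found in 19 genes, of which 3 were also under 0.5 FPKM in the vegetative and week 1 libraries. These genes held 0.448% and 0.398% of the summed FPKM of the female libraries. Among called genes, 342 were listed at 0 in both female libraries and 10 were listed at 0 in both male libraries. A listed 0 can be a failed estimate, so no fold change is given against a group at 0.

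The MADS-box genes split into a group high in male and a group high in female apices. The table holds 73 of them, 39 passed the filter on low levels, 19 rose and 15 fell. These were shares of 48.7% and 38.5%, against 32.3% and 29.2% of all genes. Most of the genes that rose were under 1 FPKM in both female libraries and passed the filter only through the male group. They could hardly fall, so the share that rose is no independent support. Among those that fell, LOC115700907 and LOC115707234 were under 1 FPKM in both male libraries and passed only through the female group. Their median difference was 0.20, but -0.02 after quantile normalisation, so the family as a whole had no stable direction. The 2 male libraries lay above both female libraries in 20 genes and below both in 17. Over all genes tested these shares were 41.4% and 42.2%.

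The class B genes were near 0 in female and high in male apices. TM6 (LOC115714657, chromosome 4 from 78054032 to 78057013 of assembly ASM2916894v1), of the APETALA3 lineage, had 170 and 156 FPKM in male libraries, against 0.0393 and 0.156 FPKM in female libraries. Its difference was 7.22 ± 0.26 (limma, adjusted p = 8.8e-09). The gene described as PMADS 2 (LOC115699531, chromosome 8 from 48462703 to 48465748), named after the petunia PISTILLATA homolog, had 126 and 112 FPKM in male and 0 and 0.231 FPKM in female libraries. Its difference was 6.75 ± 0.17 (limma, adjusted p = 8.4e-10). Both genes were low at week 1, where TM6 averaged 1.55 ± 0.93 FPKM in male and was listed at 0 in female apices, and PMADS 2 averaged 1.504 ± 0.141 FPKM in male and 1.05 ± 0.08 FPKM in female apices (SD, n = 2 each). Neither difference was called at week 1, with adjusted p-values of 0.14 and 0.90 (limma).

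The 2 genes described as floral homeotic protein AGAMOUS moved in opposite directions. The gene on chromosome X (LOC115700192, from 81938054 to 81940559) had 286 and 254 FPKM in male and 2.88 and 2.38 FPKM in female libraries, a difference of 6.22 ± 0.22 (limma, adjusted p = 7.5e-09). Its closest Arabidopsis protein shared 32% of residues and was that of AGL11 (AT4G09960). The gene on chromosome 7 (LOC115697576, from 61415108 to 61423167), with 63.6% identity to its closest Arabidopsis protein, had 34.9 and 40.5 FPKM in male and 88.5 and 66.5 FPKM in female libraries. Its difference was -1.01 ± 0.26 (limma, adjusted p = 0.007). That call was lost with a pseudocount of 0.1 (adjusted p = 0.169) and without male replicate 1 or female replicate 1 (adjusted p = 0.0622 and 0.0665, all limma). The X-linked gene in male libraries was higher than the chromosome 7 gene in any of the 4 libraries.

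Other rises in the family came from genes with different roles. JOINTLESS (LOC115714329), which in tomato acts in the flower stalk and inflorescence, had 69.1 and 56.9 FPKM in male and 0.434 and 0.611 FPKM in female libraries. SVP (LOC115721274), a floral repressor in Arabidopsis, had 32.4 and 24.2 FPKM in male and 0.181 and 0 FPKM in female libraries. Their differences were 5.39 ± 0.16 and 4.74 ± 0.18, and the vegetative means of 25.2 ± 2.3 and 29.1 ± 0.6 FPKM (SD, n = 2) were also far above those of female week 3 apices. The homologs of Arabidopsis MIKC* genes, which act in pollen, were split. AGL30 (LOC115701208) had 93.7 and 93.3 FPKM in male and 3.85 and 3.38 FPKM in female libraries. AGL104 (LOC115713471) had 12.0045 and 12.27 FPKM in male libraries and was listed at 0 in both female libraries. AGL65 (LOC115709360), with 3.77 and 3.304 FPKM in male and 3.01 and 2.88 FPKM in female libraries, was not called. The 5 genes described as MADS-box transcription factor 23-like, at most 59.7 FPKM in male, were listed at 0 in both female libraries. They may be near-identical copies that share reads, so their separate levels are uncertain.

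Genes of ovules and carpels were among those lower in male apices. AGL11 (LOC133031811, chromosome X from 71236908 to 71244796), the class D gene known as SEEDSTICK in Arabidopsis, had 1.17 and 0.846 FPKM in male and 83.8 and 69.8 FPKM in female libraries. At -5.28 ± 0.22 (limma, adjusted p = 2.3e-08) it had the largest fall of the family. FBP24 (LOC115700907), of the B-sister genes of the ovule and seed coat, had 0.444 and 0.149 FPKM in male and 11.9 and 9.38 FPKM in female libraries. A second gene of this kind, FBP24-like (LOC115707234), had 0.837 and 0.920 FPKM in male and 13.2 and 9.76 FPKM in female libraries. The gene described as MADS1 (LOC115698701), matched to a SHATTERPROOF gene of the carpel, had 3.69 and 3.36 FPKM in male and 17.8 and 17.9 FPKM in female libraries. All 4 genes fell without overlap between the groups, and the male libraries lay below both female libraries in 42.2% of all genes tested.

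Of 5 genes whose closest Arabidopsis protein is a SEPALLATA protein, 2 fell, 1 rose and 2 were not called. MADS4 (LOC115712087), a SEPALLATA3 homolog, had 37.6 and 33.4 FPKM in male and 83.9 and 66.3 FPKM in female libraries (-1.05 ± 0.23). MADS3 (LOC115716337) is not among these 5, since its closest Arabidopsis protein is AT2G45650, which is not a SEPALLATA protein. It also fell, with 17.2 and 17.1 FPKM in male and 94.6 and 85.6 FPKM in female libraries (-2.33 ± 0.22). MADS2 (LOC115709018), another SEPALLATA homolog, went the other way, with 16.2 and 13.5 FPKM in male and 4.001 and 3.015 FPKM in female libraries (1.82 ± 0.24). The uncalled genes, both described as MADS2, had 15.8 and 12.3 FPKM in male and 24.3 and 17.4 FPKM in female libraries (LOC115700827), and 48.5 and 44.2 FPKM in male and 67.0 and 52.2 FPKM in female libraries (LOC115700828). Of the 4 genes described as CAULIFLOWER A, 3 fell, among them LOC115701144, which is the other SEPALLATA match that fell, and the gene LOC115701438 was not called, with 26.6 and 25.3 FPKM in male and 25.3 and 25.0 FPKM in female libraries. The gene described as CAULIFLOWER (LOC115704295), whose closest Arabidopsis protein is AT3G57230, had 95.7 and 96.2 FPKM in male and 181 and 199 FPKM in female libraries, but its call (adjusted p = 0.031) was lost without each of the 4 libraries in turn (adjusted p from 0.0800 to 0.126), with a pseudocount of 0.1 (0.0738) and with no filter on low values (0.0585, all limma).

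**Figure D2:**
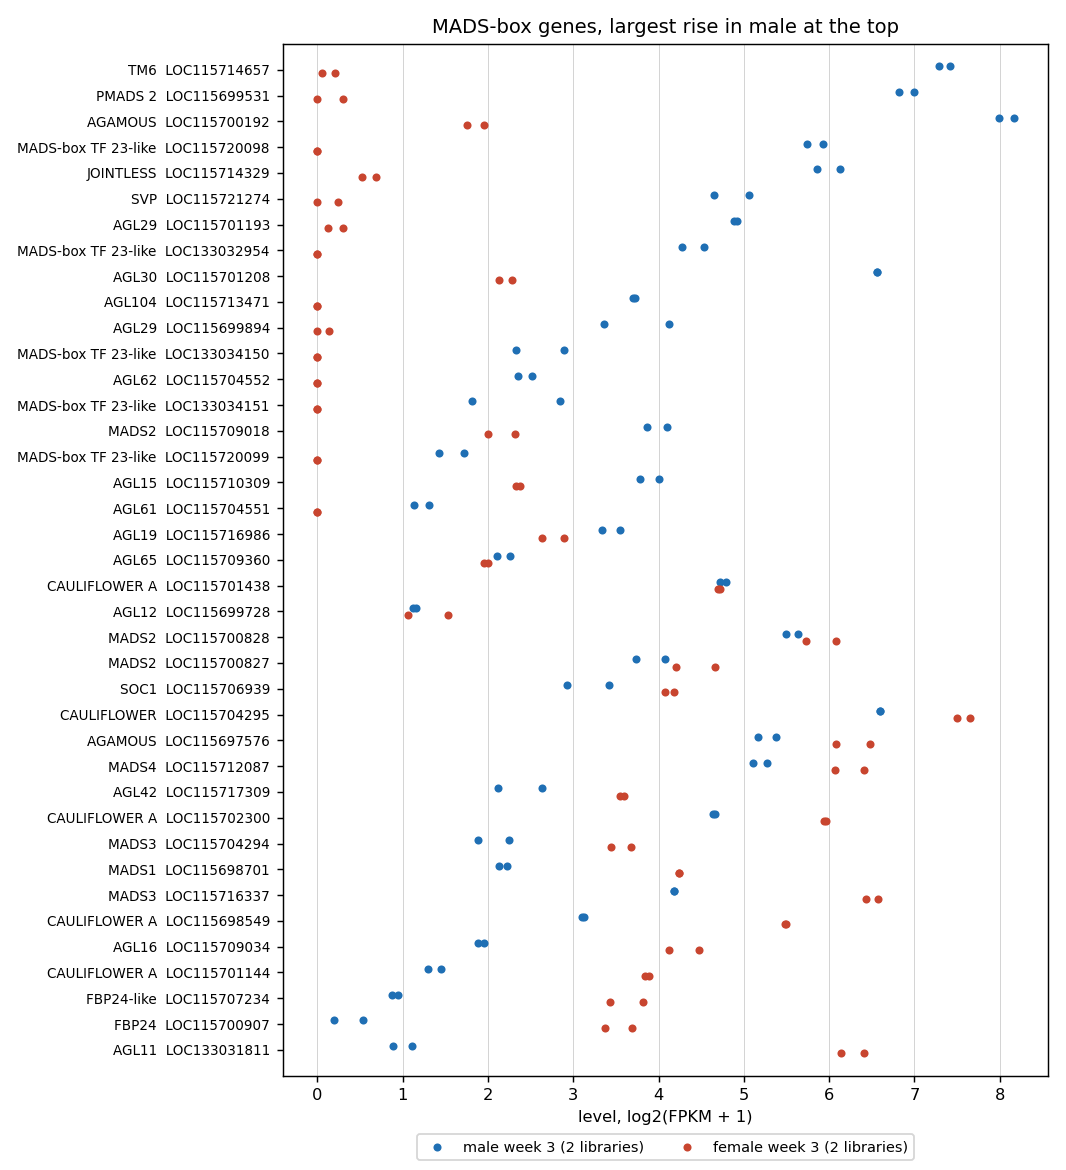
Level of each of the 39 MADS-box genes that passed the filter in each of the 4 week 3 libraries, on the x axis as log2(FPKM + 1), ordered from the largest rise in male apices at the top to the largest fall at the bottom. TM6, PMADS 2 and the X-linked AGAMOUS gene stand at the top with male points far to the right of the female points, and AGL11 stands at the bottom with the reverse.

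Most anther regulators tested rose in male apices. Of 14 tapetum and anther regulators in the table, 12 passed the filter, 9 rose and 0 fell, with a median difference of 3.64. In all 12 the male libraries lay above the female libraries, as in 41.4% of all genes tested. The share that rose was 75.0%, against 32.3% of all genes. Each of the 9 that rose was under 1 FPKM in both female libraries and passed the filter only through the male group. A rise was therefore close to fixed beforehand. The list was also chosen with earlier results known, so the share is no independent support. bHLH91 (LOC115713370), a tapetal factor in Arabidopsis, had 195 and 269 FPKM in male and 0.621 and 0.630 FPKM in female libraries (7.14 ± 0.19, limma, adjusted p = 9.9e-10). The early regulator DYT1 (LOC115704570) had 22.8 and 12.6 FPKM in male and 0.220 and 0 FPKM in female libraries. MYB35 (LOC115711316), the homolog of TDF1 that acts after DYT1, had 68.3 and 60.9 FPKM in male and 0.724 and 0.519 FPKM in female libraries. The later regulators AMS, MYB80 and MS1 were all listed at 0 in both female libraries. AMS (LOC115706375) had 10.8 and 14.3 FPKM, MYB80 (LOC115725196) 14.8 and 18.0 FPKM, and MS1 (LOC115723942) 4.05 and 1.74 FPKM in the male libraries. AMS has a close copy, LOC133032628, described as AMS-like, with which it may share reads. The receptor kinase EMS1 (LOC115717388), chosen here after its values were seen, was not called, with 24.3 and 35.3 FPKM in male and 22.4 and 23.1 FPKM in female libraries.

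All 11 genes of pollen wall synthesis rose, with a median difference of 6.67. Most of them were under 1 FPKM in both female libraries and passed the filter only through the male group, so they could hardly fall. Acyl-CoA synthesis, the initial step, was represented by 4-coumarate-CoA ligase-like 1 (LOC115712547), the homolog of Arabidopsis ACOS5, with 373 and 806 FPKM in male and 0.466 and 0.203 FPKM in female libraries (8.69 ± 0.30). The type III polyketide synthase A gene (LOC115715682, chromosome 5 from 27875864 to 27877387), which extends the acyl chain, had 544 and 543 FPKM in male and 0.0426 and 0.127 FPKM in female libraries (8.97 ± 0.15, limma, adjusted p = 2.0e-10). Fatty acyl-CoA reductase 2 (LOC115699209), known as MS2, had 216 and 424 FPKM in male and 0.170 and 0.206 FPKM in female libraries. The fatty acid hydroxylase CYP703A2 (LOC115707784) had 209.6 and 387 FPKM in male and 0.334 and 0.304 FPKM in female libraries. CYP704B1 (LOC115700892), a second hydroxylase, had 205 and 332 FPKM in male and 14.6 and 13.8 FPKM in female libraries, so it was also measurable in female apices. Tetraketide alpha-pyrone reductase 1 and the exporter ABCG26, both chosen after their values were seen, had 118 and 134 FPKM and 92.1 and 111 FPKM in male libraries and were listed at 0 in both female libraries. Of the 11 genes 8 were higher in male replicate 2 than in replicate 1. Over all genes tested, the SD of the difference between replicates was 0.391 log2 units in male and 0.252 in female week 3 apices.

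Of 17 listed meiosis genes 16 passed the filter, 12 rose and 0 fell, with a median difference of 2.06. The share that rose was 75.0%, against 32.3% of all genes. Among those that rose, LOC115706800 and LOC115695791 were under 1 FPKM in both female libraries. These passed the filter only through the male group, so they could hardly fall. The recombinase DMC1 (LOC115722511) had 159 and 85.0 FPKM in male and 3.06 and 3.17 FPKM in female libraries (4.83 ± 0.26, limma, adjusted p = 1.5e-07). ASY1 (LOC115712153), of the chromosome axis, had 167 and 98.9 FPKM in male and 7.99 and 8.35 FPKM in female libraries. The meiotic cohesin REC8, listed as sister chromatid cohesion 1 protein 1 (LOC115706800), had 39.2 and 22.6 FPKM in male and 0.103 and 0 FPKM in female libraries. SPO11-1 (LOC115724758), which makes the DNA breaks of recombination, had 5.28 and 4.19 FPKM in male and 1.30 and 1.21 FPKM in female libraries. In these 4 genes male replicate 1 was higher than replicate 2. For each of these 4 genes both male libraries lay above both female libraries, as in 41.4% of all genes tested.

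Genes listed for pollen and the pollen tube, not all of them particular to pollen, gave a mixed picture. Of 17 listed genes 11 passed the filter, 3 rose and 7 fell (27.3% and 63.6%), with a median difference of -0.53. Over all genes tested 32.3% rose and 29.2% fell. Pollen receptor-like kinase 4 (LOC115713410) had 13.8 and 17.0 FPKM in male libraries and was listed at 0 in both female libraries. This gene and EXO70C1 (LOC115707438), also at 0 in both female libraries, passed the filter only through the male group. Pollen-specific leucine-rich repeat extensin-like protein 3 (LOC115708839) had 30.4 and 43.9 FPKM in male and 2.22 and 2.50 FPKM in female libraries. The 7 falls were of 4 RALF genes, which code for signalling peptides also made outside pollen, and 3 extensin-like genes. These 3 were also measured in vegetative apices, at means of 53.8 (LOC115694761), 2.78 (LOC115703216) and 1.66 FPKM (LOC133033305). RALF-like 33 (LOC115722284) had 120 and 124 FPKM in male and 268 and 242 FPKM in female libraries. Of the 6 pollen markers, 4 were too low to test, and the summed level of all 6 was 16.1 and 21.1 FPKM in male and 0.839 and 0.707 FPKM in female libraries.

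Carpel and ovule genes formed the counterpart. Of 18 listed genes 15 passed the filter, 2 rose and 12 fell, with a median difference of -1.68. The share that fell, 80.0%, stands against 29.2% of all genes. Among those that fell, LOC115699020, LOC115712472 and LOC115723168 stayed under 1 FPKM in both male libraries and passed the filter only through the female group. CRABS CLAW (LOC115699020, chromosome 8 from 29339970 to 29342670), which shapes carpels, had 0.681 and 0.534 FPKM in male and 22.8 and 18.6 FPKM in female libraries (-3.75 ± 0.24, limma, adjusted p = 4.7e-07). AINTEGUMENTA (LOC115712812), a transcription factor gene of ovules and other organs, had 6.27 and 5.78 FPKM in male and 36.5 and 36.7 FPKM in female libraries (-2.42 ± 0.16). The YABBY gene matched to INNER NO OUTER (LOC115712472), of the outer integument, had 0 and 0.0840 FPKM in male and 4.40 and 2.34 FPKM in female libraries. The 2 rises were the X-linked AGAMOUS gene and SPATULA (LOC115714981), which had 19.7 and 19.9 FPKM in male and 14.7 and 14.1 FPKM in female libraries. SPATULA's difference of 0.43 ± 0.15 (limma, adjusted p = 0.029) was lost after quantile normalisation (adjusted p = 0.0989) and without each of the 4 libraries in turn (adjusted p from 0.0832 to 0.126).

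**Figure D3:**
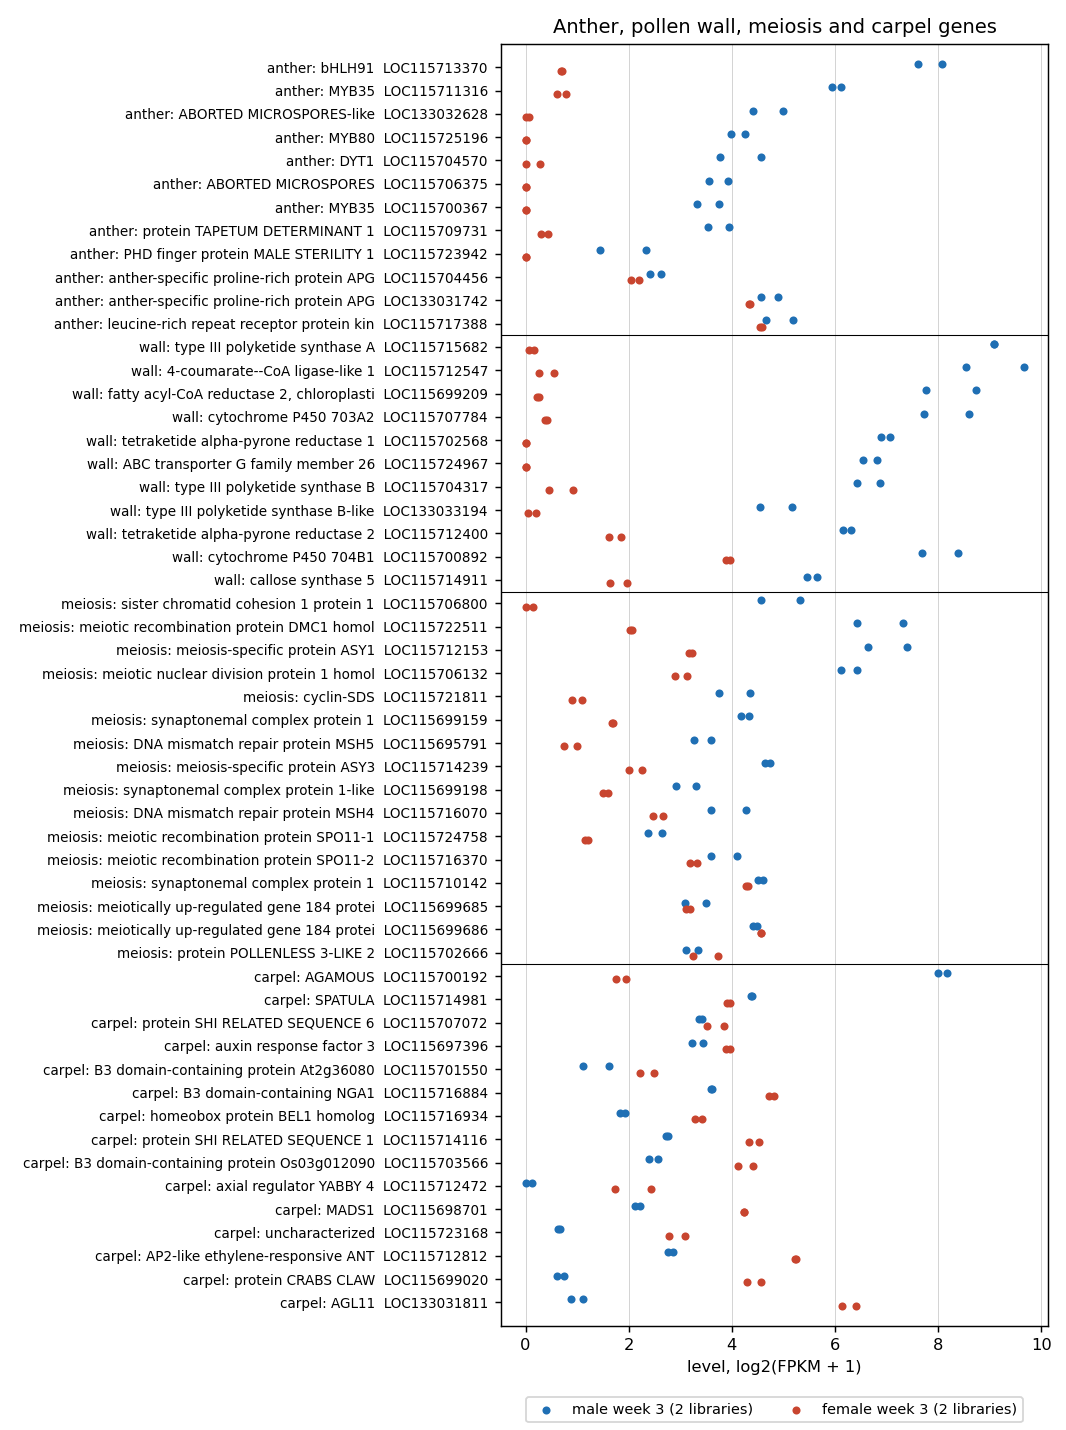
Levels of the genes of the anther, pollen wall, meiosis and carpel lists in each of the 4 week 3 libraries, on the x axis as log2(FPKM + 1). Male points lie to the right in all 12 anther and all 11 pollen wall genes and in 13 of 16 meiosis genes, and female points lie to the right in 13 of 15 carpel and ovule genes. Over all genes tested both male libraries lay above both female libraries in 41.4% and below both in 42.2%.

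These libraries are from whole tips, in which fewer cells of a type and less RNA per cell cannot be told apart. Summed over 11 tapetum markers, the level was 1229 and 1494 FPKM in male and 16.8 and 15.2 FPKM in female libraries, and 4 of the markers were at 0 in both female libraries. Summed over 6 meiocyte markers it was 378 and 224 FPKM in male and 17.7 and 17.7 FPKM in female libraries. The 5 carpel and ovule markers summed to 25.2 and 24.7 FPKM in male and 143 and 123 FPKM in female libraries, and SPATULA made up most of the male sum. The part of cell composition in the gene groups described here was not tested.

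The 12 largest rises of genes with a named product included genes of 2 ubiquitin ligases, a chitinase, a lipid-transfer protein and a pollen wall enzyme. ATL6-like (LOC115718105, chromosome 5 from 74254344 to 74255063), a RING-type ubiquitin ligase gene, had 3266 and 3317 FPKM in male libraries, while both female libraries were listed below 1e-07 FPKM. Its difference of 11.68 ± 0.15 (limma, adjusted p = 8.9e-11) rests on the pseudocount of 1. MEN-8 (LOC115715872, chromosome 5 from 13599488 to 13600265), named after a male flower transcript of white campion, had 2205 and 4329 FPKM in male and 0.321 and 0.106 FPKM in female libraries (11.32 ± 0.31). The gene described as protein M7 (LOC115718067, chromosome 4) had 2275 and 3529 FPKM in male and 0.697 and 0.0989 FPKM in female libraries (11.02 ± 0.31). Class V chitinase CHIT5-like (LOC115695573) had 1345 and 3196 FPKM in male and 0.513 and 0.118 FPKM in female libraries. Then came a non-specific lipid-transfer protein A-like gene (LOC115707560), fasciclin-like arabinogalactan protein 21 (LOC115714678) and polyadenylate-binding protein 7 (LOC115711430), with 513 to 2087 FPKM in male and at most 0.201 FPKM in female libraries. The 12 largest rises had differences from 8.90 to 11.68.

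The 12 largest falls included genes of a lipid-transfer protein, 2 germin-like proteins, a thionin and a bark storage protein. Non-specific lipid-transfer protein 1 (LOC115696872, chromosome 7 from 2432294 to 2452827), a small secreted lipid carrier, had 0.272 and 0.277 FPKM in male and 1073 and 694 FPKM in female libraries (-9.40 ± 0.20, limma, adjusted p = 3.2e-10). A germin-like protein gene (LOC115718819, chromosome 2 from 11596094 to 11597209) had 0.420 and 0.845 FPKM in male and 319 and 302 FPKM in female libraries (-7.59 ± 0.38). Thionin (LOC115712639, chromosome X from 2817784 to 2818780), which codes for an antimicrobial peptide, had 22.8 and 17.9 FPKM in male and 3373 and 2668 FPKM in female libraries (-7.15 ± 0.24). Probable inactive purple acid phosphatase 27 (LOC115709440) had 8.09 and 4.71 FPKM in male and 631 and 477 FPKM in female libraries. A pectinesterase inhibitor gene (LOC115708921) was listed at 0 in both male libraries, and had 68.1 and 60.4 FPKM in female libraries. Galactinol synthase 2 (LOC115719672), of raffinose synthesis, had 0.967 and 1.40 FPKM in male and 91.1 and 75.2 FPKM in female libraries. The 12 largest falls had differences from -9.40 to -5.27.

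Wall and lipid gene families held members that rose and members that fell. Over all genes tested 32.3% rose and 29.2% fell. Of 31 lipid-transfer genes tested 7 rose and 15 fell (22.6% and 48.4%). Of 67 GDSL esterase genes 17 rose and 33 fell (25.4% and 49.3%). Of 76 genes of pectin enzymes 18 rose and 34 fell (23.7% and 44.7%), or 13 and 42 after quantile normalisation. The GPI-anchored lipid-transfer genes 25 and 10 rose to 347 and 515 FPKM (LOC115722996) and 207 and 251 FPKM (LOC115710368) in male libraries, against at most 0.335 FPKM in female libraries. The polygalacturonase QRT3 (LOC115697935), which in Arabidopsis frees the microspores from the tetrad, had 125 and 188 FPKM in male and 10.1 and 9.71 FPKM in female libraries (3.82 ± 0.19). Of 53 genes of sugar transport and sucrose cleavage 22 rose and 20 fell (41.5% and 37.7%), or 19 and 23 after quantile normalisation. A cell wall invertase gene (LOC115699486) had 123 and 55.03 FPKM in male and 0.0660 and 0 FPKM in female libraries (6.33 ± 0.29). The sugar exporter gene SWEET6b (LOC115698891) had 196 and 184 FPKM in male and 2.84 and 1.88 FPKM in female libraries (5.84 ± 0.17).

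Genes of ethylene synthesis and signalling are given because of the treatment. Of 17 tested, 5 rose, 6 fell and 6 were not called, shares of 29.4% and 35.3% near the 32.3% and 29.2% of all genes, and after quantile normalisation 4 rose and 8 fell. ACC oxidase 5 (LOC115699408), of the last step of ethylene synthesis, had 36.0 and 49.2 FPKM in male and 0 and 0.0498 FPKM in female libraries (5.40 ± 0.17, limma, adjusted p = 3.4e-09). An EIN3-like 1 gene on chromosome X (LOC115711236), of the transcription factors at the end of the pathway, had 136 and 117 FPKM in male and 23.5 and 22.6 FPKM in female libraries (2.40 ± 0.17). A second EIN3-like 1 gene, on chromosome 1 (LOC115706079), fell, with 33.9 and 40.1 FPKM in male and 83.3 and 88.4 FPKM in female libraries (-1.20 ± 0.13). EBF1 (LOC115720532), which codes for an F-box protein that marks EIN3 for degradation, had 88.7 and 127 FPKM in male and 26.2 and 26.1 FPKM in female libraries (1.98 ± 0.21). Ethylene receptor 2 (LOC115721785) had 15.2 and 18.0 FPKM in male and 31.5 and 29.9 FPKM in female libraries (-0.85 ± 0.17). Of 46 ERF transcription factors 12 rose and 14 fell, shares of 26.1% and 30.4% that also lie near those of all genes. After quantile normalisation 9 rose and 20 fell, while over all genes 4666 rose and 7698 fell.

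Of 47 jasmonate genes 5 rose and 30 fell (median -0.92), or 63.8% that fell against 29.2% of all genes. Lipoxygenase 2 (LOC115719614), of the initial step of jasmonate synthesis, had 19.3 and 22.4 FPKM in male and 204 and 212 FPKM in female libraries (-3.26 ± 0.17), and allene oxide synthase 3 (LOC115703186) had 5.60 and 7.28 FPKM in male and 74.4 and 74.7 FPKM in female libraries. Allene oxide synthase 1-like (LOC115723125) rose, with 44.3 and 46.3 FPKM in male and 8.05 and 6.57 FPKM in female libraries, as did the lipoxygenase gene LOC115719617 (2.28 ± 0.18). Both gene kinds therefore had members that rose and members that fell. Of 104 auxin genes 16 rose and 50 fell (15.4% and 48.1%, against 32.3% and 29.2% of all genes). The Aux/IAA repressor gene IAA14 (LOC115722629) had 2.48 and 2.17 FPKM in male and 39.1 and 33.9 FPKM in female libraries (-3.49 ± 0.16).

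Of 41 cytokinin genes 14 rose and 15 fell, shares of 34.1% and 36.6% that lie near the 32.3% and 29.2% of all genes. LOG7 (LOC115700845), which releases active cytokinin, had 45.5 and 31.3 FPKM in male and 0.525 and 0.464 FPKM in female libraries (4.70 ± 0.19). The response regulator ARR9 (LOC115700593) had 115 and 90.3 FPKM in male and 5.61 and 5.87 FPKM in female libraries (3.93 ± 0.20). Of 24 gibberellin genes 6 rose and 9 fell (25.0% and 37.5%), or 3 and 12 after quantile normalisation. The 3 largest gibberellin rises were GA 20-oxidase genes, led by LOC115694716 with 6.68 and 14.7 FPKM in male and 0.415 and 0.525 FPKM in female libraries. Salicylate and defence genes fell more often, 46 of 97 (47.4%) against 21 (21.6%) that rose, or 63 against 12 after quantile normalisation. The thaumatin-like genes went both ways. Thaumatin-like protein 1b (LOC115705776) had 433 and 400 FPKM in male and 8.18 and 4.42 FPKM in female libraries, and thaumatin-like protein 1 (LOC115717404) had 1.45 and 3.98 FPKM in male and 95.2 and 88.8 FPKM in female libraries.

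**Figure D4:**
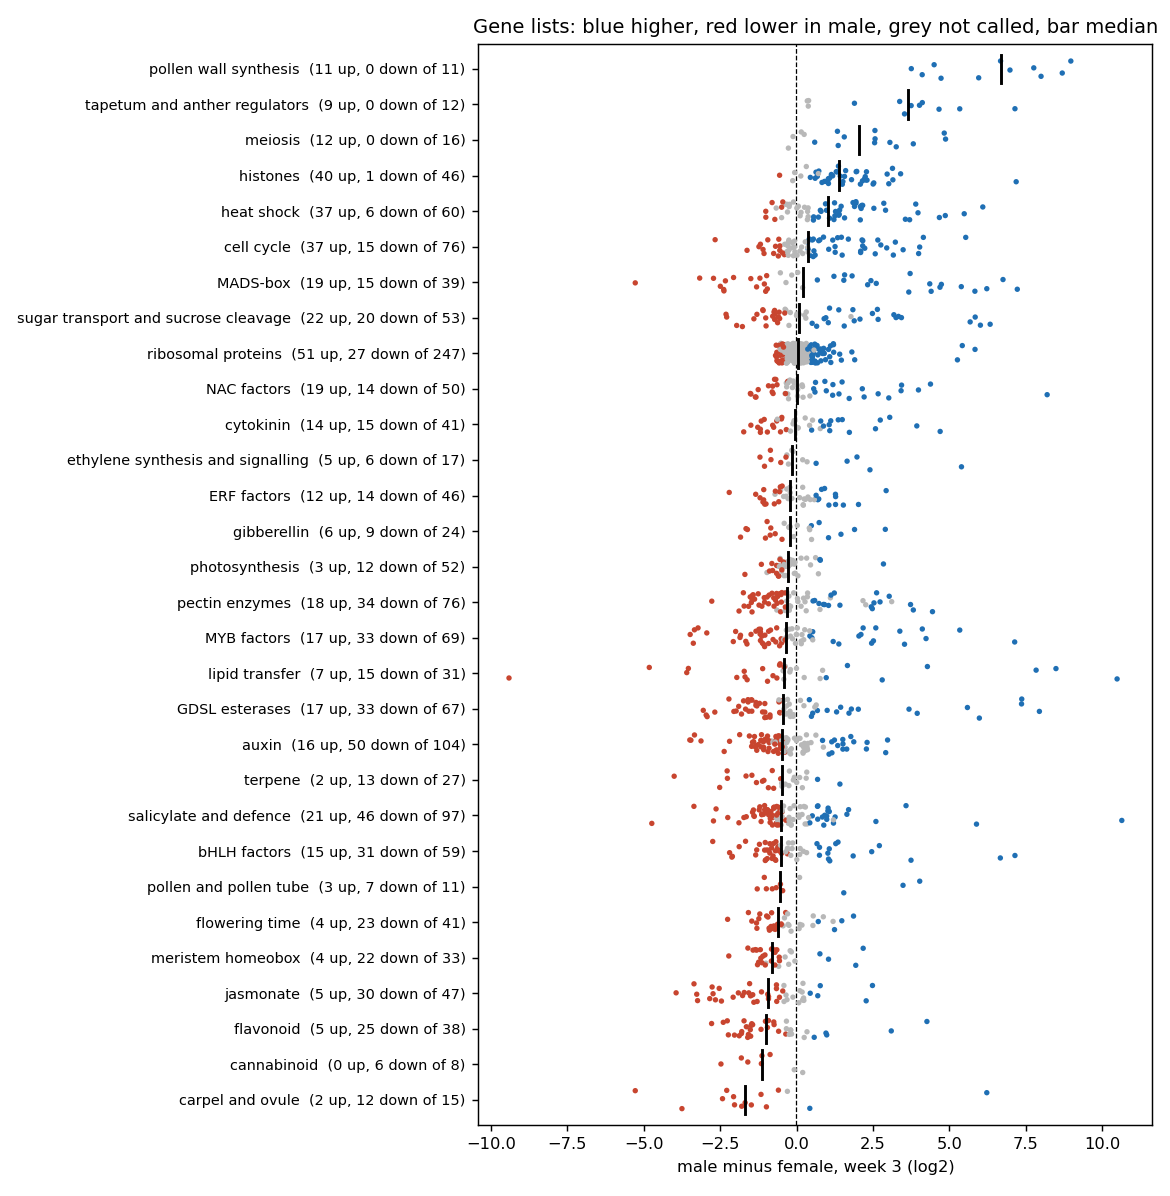
Male minus female difference at week 3 on the x axis (log2(FPKM + 1)) for each tested gene of the 30 lists, 1 point per gene, blue where it rose, red where it fell and grey where it was not called, with a bar at the median of each list and a dashed line at the median of all genes tested. Lists run from the highest median, pollen wall synthesis at 6.67, at the top to the lowest, carpel and ovule at -1.68, at the bottom.

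Of 18 cannabinoid genes listed 8 passed the filter, 6 fell and 0 rose, with a median difference of -1.14. The share that fell was 75.0%, against 29.2% of all genes. Olivetolic acid cyclase-like (LOC115723438), which closes the ring of the cannabinoid precursor, had 953 and 701 FPKM in male and 2026 and 1583 FPKM in female libraries (-1.13 ± 0.33, limma, adjusted p = 0.014). That call was lost without male replicate 2 or female replicate 1 (adjusted p = 0.119 and 0.0937). A prenyltransferase gene (LOC115713215), of the step that joins this precursor to geranyl diphosphate, had 7.43 and 7.30 FPKM in male and 48.9 and 42.1 FPKM in female libraries (-2.47 ± 0.13). Cannabidiolic acid synthase-like 1 (LOC115696966) had 1.56 and 3.04 FPKM in male and 10.7 and 9.75 FPKM in female libraries. The 4 genes described as THCA synthase-like were below 1 FPKM in all 4 libraries, at most 0.966 FPKM. The 16 trichome markers, which include these genes, summed to 999.99 and 753 FPKM in male and 2172 and 1709 FPKM in female libraries. Olivetolic acid cyclase-like alone made up most of each sum, and only 6 of the 16 markers passed the filter. The part of trichomes in the result was not tested.

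Of 27 terpene genes 2 rose (7.41%), 13 fell (48.1%) and 12 were not called, where 32.3% of all genes rose and 29.2% fell. Geranyllinalool synthase (LOC115696242) had 0.472 and 1.03 FPKM in male and 24.8 and 28.7 FPKM in female libraries (-4.00 ± 0.23), and a myrcene synthase gene (LOC115716605) had 3.21 and 2.37 FPKM in male and 21.4 and 19.6 FPKM in female libraries. Farnesyl pyrophosphate synthase (LOC115725517), which makes a general isoprenoid precursor, rose, with 144 and 145 FPKM in male and 58.4 and 48.7 FPKM in female libraries. Of 38 flavonoid genes 5 rose (13.2%) and 25 fell (65.8%), with a median of -0.98. Dihydroflavonol 4-reductase (LOC115710150), of anthocyanin and tannin synthesis, had 118 and 90.8 FPKM in male and 808 and 636 FPKM in female libraries (-2.78 ± 0.30). Of 52 photosynthesis genes 3 rose (5.77%), 12 fell (23.1%) and 37 were not called, but 36 fell after quantile normalisation. The 9 leaf mesophyll markers summed to 3488 and 4157 FPKM in male and 5464 and 5245 FPKM in female libraries, against 20259 FPKM in vegetative apices.

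Most histone genes rose in male apices. Of 46 histone genes tested 40 rose and 1 fell, with a median difference of 1.40. These were shares of 87.0% and 2.17%, against 32.3% and 29.2% of all genes. A histone H3.3-like gene on chromosome X (LOC115701521, from 84362818 to 84364540) had 492 and 641 FPKM in male and 2.78 and 2.95 FPKM in female libraries (7.18 ± 0.23, limma, adjusted p = 4.2e-09). A second gene, histone H3.3 (LOC115712897) had 2448 and 2411 FPKM in male and 1182 and 1110 FPKM in female libraries. Of the 3 neighbouring histone H2B genes on chromosome 2 from 51541274 to 51558514, which may share reads, LOC115721234 was the highest, with 826 and 824 FPKM in male and 98.1 and 86.2 FPKM in female libraries. Of 76 cell cycle genes 37 rose (48.7%), 15 fell (19.7%) and 24 were not called, and after quantile normalisation 30 rose and 26 fell. Cyclin-A1-1 (LOC115724432) had 264 and 384 FPKM in male and 17.5 and 16.5 FPKM in female libraries, and cyclin-D1-1 (LOC115712518), an entry cyclin, had 2.48 and 1.99 FPKM in male and 20.1 and 18.8 FPKM in female libraries.

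Of 60 heat shock genes 37 rose and 6 fell, with a median difference of 1.03. The share that rose was 61.7%, while over all genes tested 32.3% rose and 29.2% fell. After quantile normalisation 32 heat shock genes rose and 13 fell, while over all genes 4666 rose and 7698 fell. The mitochondrial 22 kDa heat shock protein gene (LOC115707101) had 436 and 273 FPKM in male and 4.15 and 3.98 FPKM in female libraries (6.09 ± 0.33). Heat shock protein 83 (LOC115706731) had 146 and 106 FPKM in male and 1.80 and 1.79 FPKM in female libraries. Its vegetative mean was 38.4 ± 11.4 FPKM and its male and female week 1 means were 0.787 ± 0.156 and 0.707 ± 0.062 FPKM (SD, n = 2 each), so male week 3 apices were not alone in showing it. Of 247 ribosomal protein genes tested 51 rose, 27 fell and 169 were not called, so 31.6% were called, against 61.5% of all genes. Their direction depended on scaling, with 29 rises and 98 falls after quantile normalisation. The gene uL2z-like (LOC115717100) had 55.1 and 57.3 FPKM in male libraries and was listed at 0 in both female libraries.

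Of 699 tested genes with a transcription factor family in the authors' deposited table, MADS-box genes included, 186 rose and 295 fell. These were shares of 26.6% and 42.2%, against 32.3% and 29.2% of all genes. All 9 SBP genes, which promote the phase change to flowering, had negative differences and 8 fell, with squamosa promoter-binding protein 1 (LOC115700826) at 11.97 and 10.9 FPKM in male and 64.3 and 52.7 FPKM in female libraries. HD-ZIP genes fell in 14 of 21 cases and rose in 2. Of 11 heat stress factors 8 rose and 1 fell. Outside these 699 genes, since the table gives them no family, stood NAC domain-containing protein 101-like (LOC115696790), with 353 and 242 FPKM in male libraries and listed at 0 in both female libraries, and the gene described as MYB120 (LOC115721975). MYB120 had 277 and 405 FPKM in male and 1.16 and 1.65 FPKM in female libraries (7.14 ± 0.22). Within them, MYB31 (LOC115717018) had 0.446 and 0.448 FPKM in male and 17.4 and 13.2 FPKM in female libraries.

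Most meristem and flowering time genes tested fell in male apices. Of 33 meristem homeobox genes 4 rose (12.1%) and 22 fell (66.7%), with a median of -0.79. Of 41 flowering time genes 4 rose (9.76%) and 23 fell (56.1%), with a median of -0.62. Over all genes tested 32.3% rose and 29.2% fell. KNAT1-type knotted-1-like 2 (LOC115719780), which keeps meristem cells undifferentiated, had 3.90 and 4.27 FPKM in male and 11.5 and 13.8 FPKM in female libraries (-1.42 ± 0.17). WUSCHEL (LOC115711960), the stem cell gene that Arabidopsis also uses in anthers and ovules, rose, with 2.66 and 5.77 FPKM in male and 0.203 and 0.403 FPKM in female libraries (1.94 ± 0.25). FLOWERING LOCUS T (LOC115709185) had 1.54 and 3.11 FPKM in male and 0.191 and 0.127 FPKM in female libraries (1.48 ± 0.36, limma, adjusted p = 0.0055). Its call was lost without male replicate 2 (adjusted p = 0.0633).

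Genes without a named product were about as common among the large rises as among all genes tested, and less common among the large falls. Of the 851 genes that rose by at least 3 log2 units 32.0% had none, against 11.8% of the 85 that fell by as much and 28.2% of all genes tested. LOC115703100 on chromosome X had 1034 and 999 FPKM in male and 0.371 and 0.0818 FPKM in female libraries. LOC115722486, described by its likeness to the uncharacterized Arabidopsis gene At2g34160, had 904 and 1111 FPKM in male and 0.282 and 0.0610 FPKM in female libraries. LOC115721564, listed as an snRNA in the reference gene table, was listed at 0 in all male, vegetative and week 1 libraries and had 1139 and 1169 FPKM in female week 3 libraries. LOC115701758, listed there as an rRNA and the highest gene in all 4 libraries, had 11427 and 8953 FPKM in male and 3930 and 4293 FPKM in female libraries (1.30 ± 0.31). Its call was lost after quantile normalisation, which gave a difference of 0 by its construction since this gene was the highest in each of the 4 libraries, and without male replicate 1 (limma, adjusted p = 0.0541). Its part in the other differences was not tested. Of 33 genes of the mitochondrial genome tested 26 rose and 0 fell, with a median difference of 1.17. The share that rose was 78.8%, against 32.3% of all genes.

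The changed genes were spread over all chromosomes. On chromosome X 32.9% of 2073 genes tested rose and 28.3% fell, close to the shares over all genes. Runs of at least 3 neighbouring tested genes that changed by at least 3 log2 units numbered 8 for rises (25 genes) and 3 for falls (11 genes). The longest was a row of 5 thionin genes on chromosome X from 2696580 to 3039271, with differences from -7.15 to -3.21. The others among the falls were 3 lipid-transfer protein 1 genes on chromosome 7 from 2332066 to 2382709 and 3 MLP-like genes on chromosome 8 from 25726689 to 25843671. Members of such rows are similar to each other and may share reads. Of 575 Arabidopsis proteins matched by at least 2 cannabis genes that changed by at least 1 log2 unit, 146 had matches in both directions, as the X-linked AGAMOUS gene and AGL11, both matched to AT4G09960, show.

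Few genes were called at week 1. Of the same 17999 genes 14 (0.0778%) were called between male and female week 1 apices, 13 higher and 1 lower in male. The difference between the sexes at week 3 itself differed from that at week 1 in 8367 genes (46.5%), 8200 of them called at week 3. The week 3 difference is a term of this interaction test, and few genes differed at week 1. Genes chosen for a large week 3 difference were therefore nearly bound to pass it, which is no separate support. Of the 5380 genes that changed by at least 1 log2 unit at week 3, 5179 passed this interaction test, as did all 24 of the largest rises and falls. AGL11 is an example: it averaged 8.22 ± 1.97 FPKM in male and 9.16 ± 1.41 FPKM in female apices at week 1, and 1.01 ± 0.23 FPKM in male and 76.8 ± 9.9 FPKM in female apices at week 3 (SD, n = 2 each). CRABS CLAW averaged 5.48 ± 2.11 FPKM in male and 3.96 ± 0.54 FPKM in female apices at week 1, and 0.607 ± 0.104 FPKM in male and 20.7 ± 2.9 FPKM in female apices at week 3. In both genes the male level was lower at week 3 than at week 1 and the female level was higher. JOINTLESS averaged 7.04 ± 1.01 FPKM in male and 5.31 ± 0.66 FPKM in female apices at week 1, and 63.0 ± 8.7 FPKM in male and 0.523 ± 0.125 FPKM in female apices at week 3. Here the male mean was higher at week 3 than at week 1 and the female mean was lower.

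**Figure D5:**
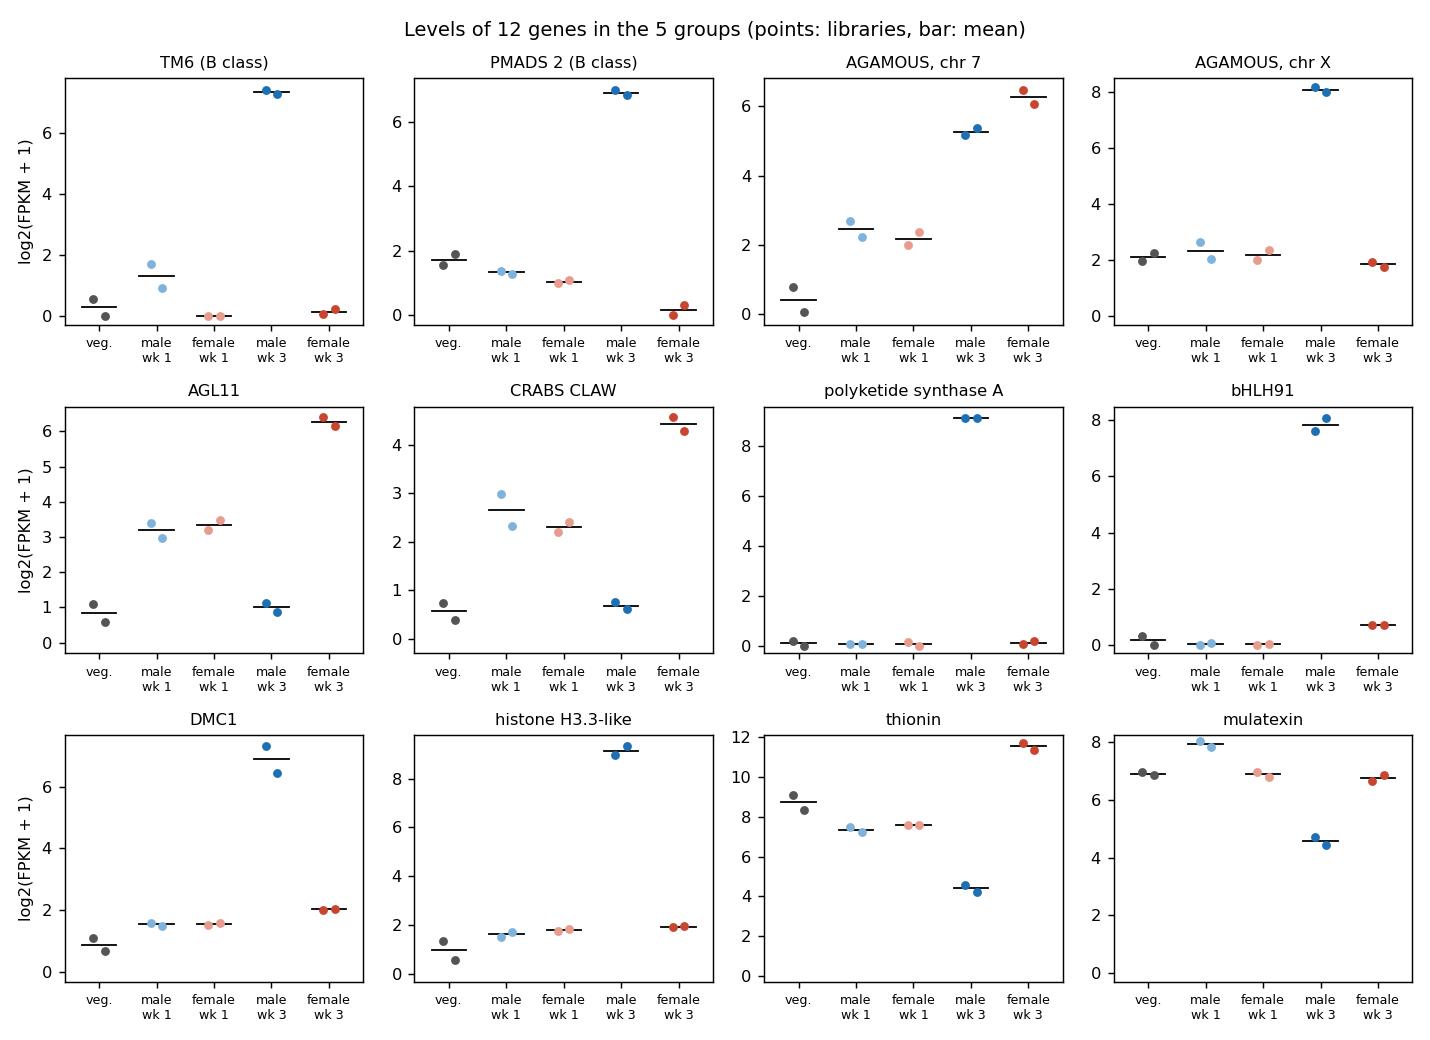
Levels of 12 genes in the 5 groups (x axis), in log2(FPKM + 1) on the y axis, whose range differs between panels, with 1 point per library and a bar at the group mean. In TM6 the male week 3 libraries stand apart from all others, at a mean of 163 FPKM against 0.0977 FPKM in female week 3, and in AGL11 the female week 3 libraries do, with means of 1.01 FPKM in male and 76.8 FPKM in female week 3.

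The authors' deposited table also compares these 2 groups. Of the genes tested here, 10220 had an adjusted p below 0.05 in the authors' deposited table, and 9815 of these were also called here, all 9815 in the same direction. A further 215 genes called here stood at a log2 change of 0 and a p of 1 in the authors' deposited table.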

How the data were processed

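Total RNA from shoot tips was sequenced by Illumina libraries after column extraction with DNase, per the labels' protocols. The authors deposited 1 table of 35192 genes placed on assembly ASM2916894v1, per the file headers. Its FPKM values, as deposited, were made by the authors, and whether they are RPKM could not be told; the sources used here name no aligner or counter. The log2 fold changes and adjusted p-values of the authors' deposited table were used only for comparison, and identity to Arabidopsis proteins, in percent, was taken as deposited.

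Here log2(FPKM + 1) was tested in R 4.3.3 by limma 3.58.1, fitting 1 mean to each of the 5 groups over all 10 libraries and an empirical Bayes variance with trend and robust settings (2-sided, Benjamini-Hochberg over the 17999 genes whose mean reached 1 FPKM in either week 3 group). A count test had been planned if the table held counts. The script was tested on simulated data. Python 3.11.15 made the summaries. The members and the 30 gene lists were chosen with earlier results of these data known. Named genes were the 12 largest rises and falls with a named product and a mean of at least 10 FPKM without overlap between groups, up to 3 each way per list, all MADS-box genes tested, cell type markers, the 5 highest genes each way without a named product, and the 5 highest called genes each way. A subset is given. Of the gene IDs, 34658 matched the reference gene table, used for biotypes. Alternatives were other pseudocounts, filters, scalings and variance settings, the replicate block, and leaving out each week 3 library.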

Additional observations from a re-analysis of the deposited data

Results flagged for a closer look

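The difference between male and female apices changed between the weeks in 8367 genes by the test of the interaction (limma, adjusted p below 0.05), and 5 genes were called at both weeks in opposite directions. Each of these 5 was higher in male than in female apices at week 1 and lower at week 3. WRKY70 (LOC115707511), a defence regulator in Arabidopsis, averaged 30.2 FPKM in male and 1.06 FPKM in female apices at week 1, and had 2.36 and 3.19 FPKM in male and 5.94 and 5.46 FPKM in female libraries at week 3. Its week 3 difference minus its week 1 difference was -4.76 log2 units. That change was -3.26 in nucleoredoxin 1 (LOC115712631), which had 38.6 and 47.2 FPKM in male and 115 and 112 FPKM in female libraries at week 3. It was -3.23 in mulatexin (LOC115711958), a latex defence protein in mulberry, with 25.6 and 20.8 FPKM in male and 100.1 and 115 FPKM in female libraries at week 3. In the transporter gene LOC115712604 it was -2.64, and in the sucrose synthase gene LOC115705483 it was -2.40. These 5 genes were chosen by their values, and the cause was not tested.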

How the results depend on the processing

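Across 14 alternative settings the number of called genes ranged from 9010 to 12364, against 11072, and 0 genes called in both fits had opposite signs. The number changed by at least 1 log2 unit, 5380, was 3445 with a pseudocount of 5, which shrinks the differences of low genes by construction. Leaving out 1 week 3 library at a time gave 9010 to 10051 called genes, 5361 to 5499 with at least 1 log2 unit, and 6760 to 7820 genes with a difference between the weeks. The lone library left in a group was then assumed to vary like those of the other groups. With the replicate block 10865 genes were called, 10787 of them shared, and the week 1 count was 12 against 14. The block rests on shared numbers only, since deviations of same-numbered male and female week 3 libraries had a correlation of 0.094 across genes. Over all pairs of groups this correlation ran from -0.434 (female and male week 1) to 0.225 (male week 1 and male week 3). Of the 253 named genes 242 were called, 222 of them in every setting that tested them, and 0 changed sign. The tests of week 1 and of the difference between weeks could not be fitted with the 4 week 3 libraries alone. With 2 libraries per group and unknown read depth, levels near 0 are the least certain.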
